A study of Mus musculus with 11 samples.

Results

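The E proteins E2A (gene *Tcf3*), HEB (*Tcf12*) and E2-2 (*Tcf4*) and the Id proteins *Id1*, *Id2* and *Id3* were followed in open chromatin of 4 lymphoid cell types of the mouse. The 6 genes were taken as a family by name, of 21924 protein-coding genes in the annotation, and every ATAC-seq peak that touched the gene body or its flanks was counted. The flanks were 20 kb on each side, and 100 kb for *Id2*, a short gene with distal open regions. In all, 59 merged intervals of the 71400 in the series fell in these 6 windows, 5 at *Tcf3*, 7 at *Tcf12*, 19 at *Tcf4*, 5 at *Id1*, 17 at *Id2* and 6 at *Id3*.

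E proteins are basic helix-loop-helix transcription factors. They bind DNA as dimers at the E-box, whose letters are CANNTG, and they drive the early steps of T and B lymphocyte development. Id proteins have the helix-loop-helix part without the basic, DNA-binding part, so a dimer of an E protein with an Id protein does not bind the E-box. Innate lymphoid cells depend on *Id2*, and in thymocytes *Id3* is induced by signals from the antigen receptor.

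The samples were sorted cells of C57BL/6 mice, with no treatment, mutation or transgene named in the labels, which give neither age nor sex. The study's methods describe mice some weeks old. Thymus gave CD4SP thymocytes, which carry CD4 without CD8 (2 libraries), and NKT thymocytes, which bind a glycolipid-loaded CD1d tetramer (2 libraries). Bone marrow gave CLP, common lymphoid progenitors (3 libraries), and ILCP, innate lymphoid cell progenitors (2 libraries). NKT and ILCP express the transcription factor PLZF, the product of *Zbtb16*, and CD4SP and CLP were their controls. ILCP were sorted for lack of lineage markers, IL-7Rα, α4β7 and an eGFP signal, and the study's methods list a *Zbtb16* strain that carries eGFP, so *Zbtb16* was probably used to choose these cells. CLP were sorted for lack of lineage markers, IL-7Rα, intermediate cKit and Sca-1 and high Flt3. Replicates were biological by the study's methods, but which mice were pooled for each is not given in the sources used here.

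The libraries held 19343 to 41535 peaks, with CLP 1 the lowest and the other CLP libraries the highest, and the files give no number of reads for single libraries. ILCP had 26328 and 25771 peaks, against 33648 to 38793 in the 4 thymic libraries. CLP 1 stood apart from its replicates, with 0.446 to 0.461 of the intervals open in either library of a pair open in both, against 0.723 to 0.806 in the other replicate pairs. Of 8 T cell markers, all had a peak at a start site in the 4 thymic libraries and 4 or 5 did in the bone marrow libraries, where *Cd3e*, *Cd3g* and *Cd4* had none. *Rag1* had a peak at its start site in the 3 CLP libraries and in no other, *Flt3* in all 5 bone marrow libraries and in no thymic one, and *Zbtb16* in both NKT, both ILCP and 1 CLP library. Of the NKT markers, *Klrb1c* had no peak at a start site in any library, and of the ILCP markers *Tcf7* had one in CD4SP alone. *Cd79a*, *Lyz2* and *Klf1*, markers of B, myeloid and erythroid cells, had no such peak in any library, while the B lineage factor *Ebf1* had one in all 9 and *Pax5* in 6. The myeloid factor *Cebpa* had one in every library but CD4SP 1, and the erythroid factor *Gata1* in CD4SP 1, CD4SP 2 and NKT 2. By list, 2 and 4 of 5 NKT markers were open in the NKT libraries (2 in each CD4SP library and in CLP 2), 4 or 5 of 5 CLP markers in CLP (2 or 3 in ILCP) and 4 or 5 of 6 ILCP markers in ILCP (3 to 5 in CLP and 5 in each thymic library). In any library up to 2 of 4 myeloid and up to 1 of 2 erythroid markers were open, and their part in the results was not tested. A peak missing from a library can mean fewer cells with the site open, less opening in each cell, or a shallower library, and these cannot be told apart here.

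At 4 of these 6 genes every CLP library had more peaks than every ILCP library. The same was found in 9.69% of all genes with 20 kb flanks and in 12.5% with the 100 kb used for *Id2*. With 20 kb flanks *Id2* showed the reverse, with 3 and 3 peaks in ILCP and 1, 2 and 2 in CLP. *Id1* had 1, 3 and 3 peaks in the CLP libraries and 0 in both ILCP libraries. *Id3* had 1, 3 and 2 peaks in CLP and 0 in both ILCP. *Id2* had 6, 9 and 10 peaks in CLP and 4 and 3 in ILCP. Of the 3 Id genes, therefore, *Id2* alone had peaks in the ILCP libraries.

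Among the E proteins, *Tcf12* had 2, 3 and 4 peaks in CLP and 1 and 0 in ILCP. *Tcf4* had 4, 10 and 9 peaks in CLP and 3 and 4 in ILCP, so that these groups touched at 4. *Tcf3* had 2 peaks in each of the 5 bone marrow libraries. With 3 against 2 libraries, there can be no two-sided exact permutation p below 0.1, and the exact permutation p was 0.2 for *Id1*, *Id2*, *Id3* and *Tcf12*, 0.3 for *Tcf4* and 1 for *Tcf3*. With an equal number of top peaks from each library the difference of ILCP minus CLP shrank from -2.33 to -0.333 at *Id1*, from -2 to -0.667 at *Id3*, from -2.5 to -0.667 at *Tcf12* and from -4.83 to -2.67 at *Id2*. With the upper 50% of peaks it was 0 at *Id1*, -0.333 at *Id3* and *Tcf12* and -1.67 at *Id2*. At *Tcf4* the difference of -4.17 became -2 with an equal number of top peaks and -1.5 with the upper 50%. Per 10000 library peaks it was -0.662 at *Id1*, -1.25 at *Id2*, -0.579 at *Id3*, -0.728 at *Tcf12* and -0.894 at *Tcf4*. The exact permutation p was then 0.1 at each of these genes and 0.8 at *Tcf3*. How many of all genes reach 0.1 on that measure was not counted.

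Of the 5 genes with 20 kb flanks, 3 had every CLP library above every ILCP library (*Tcf12*, *Id1*, *Id3*), a pattern found in 9.69% of 17721 genes with a peak. None of the 5 had every ILCP library above CLP (4.53% of genes). With 100 kb flanks, the pattern of *Id2* was found in 12.5% of 19579 genes.

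**Figure D1:**
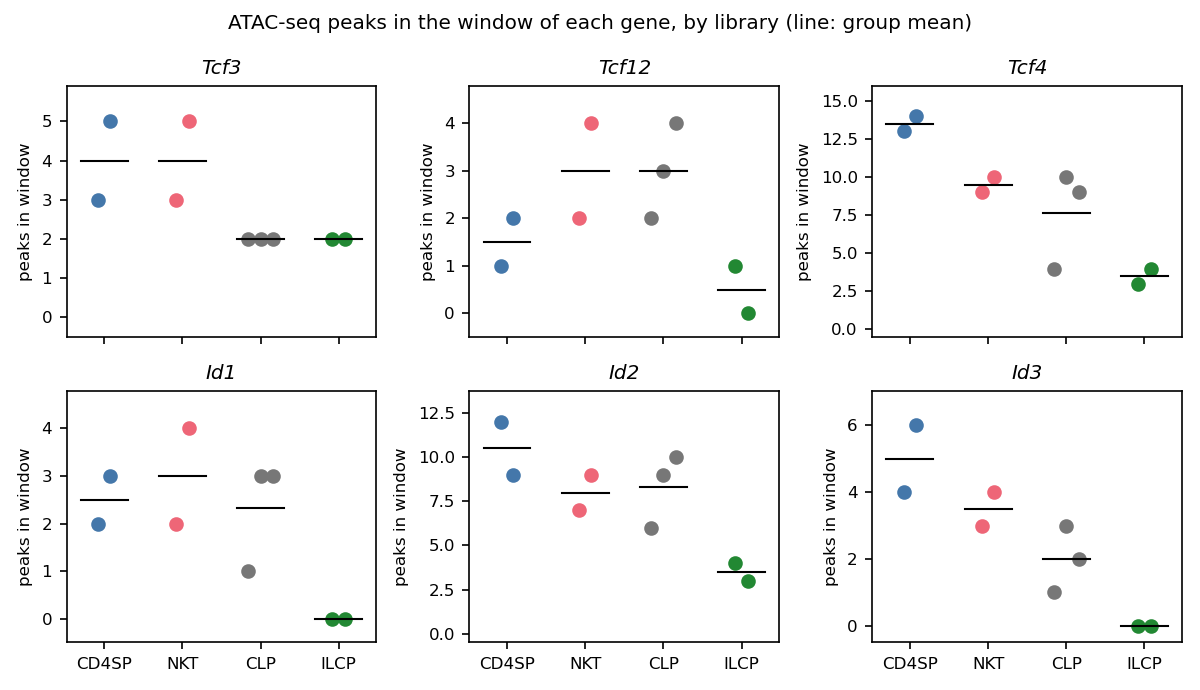
Number of ATAC-seq peaks (y axis) in the window of each gene, by cell type (x axis). Each point is 1 library and each line a group mean. At Id1 and Id3 both ILCP libraries are at 0, and at Tcf4 both CD4SP libraries (13 and 14) are above both NKT libraries (9 and 10).

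In the thymus, *Tcf4* alone separated NKT from CD4SP, with 13 and 14 peaks in CD4SP and 9 and 10 in NKT. The mean was 13.5 ± 0.707 (SD, n = 2) in CD4SP and 9.5 ± 0.707 (SD, n = 2) in NKT, and the exact permutation p of 0.333 is the smallest that 2 against 2 libraries can give. The difference of -4 became -2 with an equal number of top peaks and with the upper 50% of peaks. *Tcf3* had 3 and 5 peaks in CD4SP and the same in NKT, and *Tcf12* had 1 and 2 in CD4SP and 2 and 4 in NKT. *Id1* had 2 and 3 in CD4SP and 2 and 4 in NKT, *Id2* 12 and 9 against 7 and 9, and *Id3* 4 and 6 against 3 and 4. Every CD4SP library lay above every NKT library in 6.16% of genes, and the reverse, which no member showed, in 8.82%.

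With both tissues in 1 test and labels permuted within each, the summed difference of PLZF-expressing cells minus controls was -8.17 peaks at *Tcf4* (two-sided exact permutation p = 0.05). It was -7.33 at *Id2* and -3.5 at *Id3* (exact permutation p = 0.0667 for each). The sum turned to 0.333 at *Id2* with flanks of 5 or 20 kb (exact permutation p = 0.933) and to 0.167 at *Id3* with the upper 50% of peaks (exact permutation p = 0.8). Per 10000 library peaks it was -2.09 at *Tcf4*, -2.05 at *Id2* and -1.02 at *Id3*, each with the smallest exact permutation p possible, 0.0167. How many of all genes reach this p per 10000 library peaks was not counted, so it cannot be set against a background. With an equal number of top peaks it was -4 at *Tcf4* (exact permutation p = 0.0167), -1.67 at *Id2* (p = 0.467) and -0.667 at *Id3* (p = 0.4). With the upper 50% of peaks it was -3.5 at *Tcf4* (exact permutation p = 0.15) and -0.167 at *Id2* (p = 1). Adjusted over all 17721 genes by the Benjamini-Hochberg method, the p-values for peak numbers were 0.993 at all 3. In peak numbers no gene passed an adjusted p of 0.05 in any of the comparisons, although 334 genes had an unadjusted exact permutation p under 0.05 here and 5447 did between the tissues.

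Between tissues, *Tcf3* and *Id3* had an unadjusted p under 0.05, and neither passed after adjustment. *Tcf3* had 3 to 5 peaks in the 4 thymic libraries (4 ± 1.15, SD, n = 4) and 2 in each of the 5 bone marrow libraries, without overlap. The exact permutation p was 0.00794, the smallest 4 against 5 libraries can give, with an adjusted p of 0.0619. The difference of 2 peaks fell to 0.75 with an equal number of top peaks and to 1 without peaks near other genes' start sites (exact permutation p = 0.167 for each), and to 0.95 with the upper 50% of peaks (exact permutation p = 0.119). Per 10000 library peaks it was 0.381 (exact permutation p = 0.0794). The same separation was found in 12.8% of genes, and the opposite one, shown by no member, in 3.54%. *Id3* had 4.25 ± 1.26 peaks in the thymus (SD, n = 4) and 1.2 ± 1.3 in the bone marrow (SD, n = 5), with exact permutation p = 0.0238 and adjusted p = 0.124. The *Id3* difference of 3.05 fell to 1.05 with 5 kb flanks (exact permutation p = 0.238). Its exact permutation p was 0.0536 without CD4SP 1, CD4SP 2 or NKT 2, and 0.0571 without CLP 1, CLP 3, ILCP 1 or ILCP 2. At *Tcf4* the exact permutation p was 0.0714 (adjusted p = 0.219), and the tissues overlapped in peak number. Per 10000 library peaks they did not overlap there, with 2.58 to 3.86 in the thymus and 1.14 to 2.41 in the bone marrow. How many of all genes separate on that measure was not counted. Both bone marrow cell types are progenitors and both thymic ones T cells, so tissue and lineage cannot be told apart.

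Openness of the same stretch was then compared through merged intervals. A library opened an interval if it had any peak in it. Intervals opened by all replicates of 1 cell type, and by no replicate of the type it was compared with, are called specific. To compare libraries of different peak number, the score of each peak was ranked in its own library and given as an upper percentage, where 0% is the highest score and tied peaks share their mean rank. Distances are from the start site along the gene, with minus for upstream.

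Of the 17 intervals of *Id2*, 1 was open in both ILCP libraries and closed in CLP, 3.1 kb downstream of the start site and reaching over the annotated end of the gene (chr12:25092051-25093913, mm10). Such intervals were no more frequent here than elsewhere, at 5.71% over the 6 genes against 8.67% of all intervals open in CLP or ILCP. The upper percentage of the *Id2* interval was 9.72% in ILCP 1 and 12.1% in ILCP 2, rank 2558 of 26328 and rank 3107 of 25771. No CLP library had a peak there. In the thymus it was open in both CD4SP libraries (53.3% and 56.1%) and in NKT 2 (39.0%), and not in NKT 1. The peak thus ranked higher in both ILCP libraries than in any other library.

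The central 300 bp of this interval are shown with those of 3 further intervals, because the intervals differ in the libraries that open them. Letters are mm10, written along the strand of the gene, and capitals mark E-boxes (CANNTG, which reads the same pattern on both strands). The first is open in ILCP but not CLP (chr12:25092832-25093131, minus strand). The second, 93.7 kb upstream, ranked highest in CLP (chr12:25189640-25189939, minus strand). The third, 21.9 kb upstream, was open in the 4 thymic libraries alone (chr12:25117875-25118174, minus strand). The fourth, 16.8 kb downstream of the *Id3* start site, was also open in thymic libraries alone (chr4:136160196-136160495, plus strand).
Id2 +3.1 kb: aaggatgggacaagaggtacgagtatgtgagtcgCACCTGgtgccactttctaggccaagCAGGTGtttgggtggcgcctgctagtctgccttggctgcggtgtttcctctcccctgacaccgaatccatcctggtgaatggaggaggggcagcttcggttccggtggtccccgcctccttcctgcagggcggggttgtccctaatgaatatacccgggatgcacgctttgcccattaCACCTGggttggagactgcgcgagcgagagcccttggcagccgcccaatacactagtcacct
Id2 -93.7 kb: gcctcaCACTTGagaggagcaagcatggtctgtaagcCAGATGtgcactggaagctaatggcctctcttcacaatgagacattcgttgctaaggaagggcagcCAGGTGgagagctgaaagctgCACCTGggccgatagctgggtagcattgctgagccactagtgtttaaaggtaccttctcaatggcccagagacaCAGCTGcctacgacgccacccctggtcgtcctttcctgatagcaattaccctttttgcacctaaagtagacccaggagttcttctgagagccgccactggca
Id2 -21.9 kb: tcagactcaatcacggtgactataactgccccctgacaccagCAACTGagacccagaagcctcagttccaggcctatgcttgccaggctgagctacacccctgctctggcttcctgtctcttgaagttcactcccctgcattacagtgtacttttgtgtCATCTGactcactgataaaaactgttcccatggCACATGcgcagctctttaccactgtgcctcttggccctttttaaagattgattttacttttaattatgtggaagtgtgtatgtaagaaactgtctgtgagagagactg
Id3 +16.8 kb: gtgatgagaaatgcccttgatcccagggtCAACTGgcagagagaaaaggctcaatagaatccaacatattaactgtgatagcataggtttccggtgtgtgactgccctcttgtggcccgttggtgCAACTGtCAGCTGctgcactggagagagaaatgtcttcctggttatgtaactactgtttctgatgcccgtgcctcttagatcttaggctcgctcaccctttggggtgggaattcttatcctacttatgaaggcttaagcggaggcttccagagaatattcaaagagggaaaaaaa

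The *Id2* stretch at 3.1 kb held 3 E-boxes, all of the form CAGGTG on one strand or the other, and 0.356% of the 71395 intervals with a complete central sequence held 3 or more of that form. The stretch 93.7 kb upstream held 5 E-boxes, of which 2 were CAGGTG and 1 CAGCTG, and 3.34% of intervals held 5 or more E-boxes. These limits were chosen after the sequences were seen, and a match is not evidence of binding. The stretch 21.9 kb upstream held 3 E-boxes, none of them CAGGTG or CAGCTG. The *Id3* stretch held 3 E-boxes, 1 of them CAGCTG, and 1 match each to CTTTGAA, the core bound by TCF-1 and LEF-1, and to TTATGTAA, a sequence of the kind that NFIL3 binds.

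The interval 93.7 kb upstream of *Id2* lies within the non-coding gene *Gm36287* (chr12:25188342-25191239). CLP 1, 2 and 3 had it at 5.57%, 1.80% and 0.0797%, rank 32 of 40136 in CLP 3. In CLP 2 its score was the 3100 that 1265 peaks of that library shared, so its exact rank there is not resolved. The 4 thymic libraries had it between 35.9% and 48.3%, ILCP 1 at 80.3%, and ILCP 2 had no peak. All 3 CLP libraries ranked it above the other 5 libraries that had the peak.

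Most of the remaining distal intervals of *Id2* were open in 1 tissue alone. Open in all 3 CLP libraries and no ILCP library were those 61.3 and 69.3 kb upstream and the one 41.3 kb downstream, which touches a start site of the neighbouring gene *Kidins220* within 1 kb. Their upper percentages were 66.6% to 93.1%, 16.6% to 71.8% and 23.8% to 89.4%, with CLP 1 the lowest ranked at each. The one 69.3 kb upstream was also open in CD4SP 1, at 90.4%. Open in the 4 thymic libraries and no bone marrow library were those 21.9 and 59.6 kb upstream and 82.7 and 85.5 kb downstream, the last pair inside *Kidins220*. The strongest of these was at 21.9 kb upstream, at 33.6% to 43.9%. An interval 96.3 kb upstream was open in CD4SP (73.5% and 75.5%) and not in NKT. The last 5 intervals, at 23.4, 46.4, 47.6 and 81.9 kb upstream and 78.9 kb downstream, were open in CLP 2, CLP 3 or both and in no other library.

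The start site of *Id2* was open in all 9 libraries. It stood at 8.63% and 6.48% in CD4SP, 11.5% and 12.4% in NKT, 14.7%, 8.14% and 10.3% in CLP, and 25.0% and 18.3% in ILCP. Within 20 kb of the gene, ILCP had 3 and 3 peaks and CLP 1, 2 and 2, so at this distance the order of the cell types was the reverse of that over 100 kb. The difference was 1.33 peaks (exact permutation p = 0.1, the smallest for 3 against 2 libraries), and that separation was found in the 4.53% of genes given above. Beside the start site and the interval at 3.1 kb, ILCP had the one 2.8 kb upstream, at 99.3% and 92.15%, which was open in all libraries but CLP 1 and ranked at 49.3% to 86.3% in the others. The peaks that CLP had in excess thus all lay further than 20 kb from the gene.

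**Figure D2:**
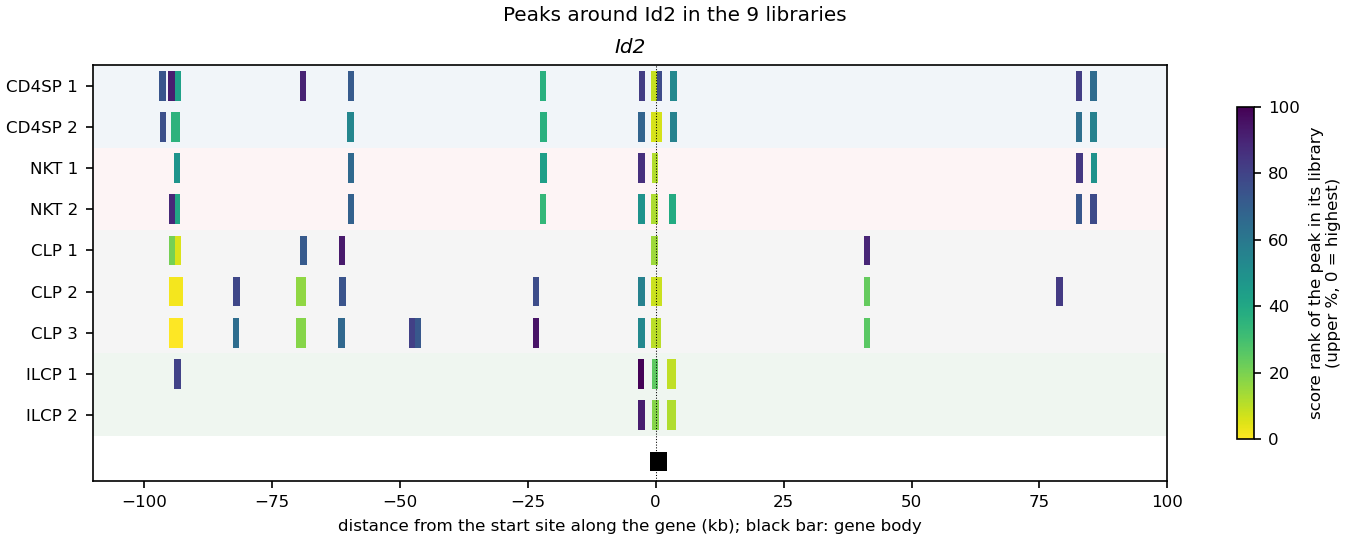
Peaks of the 9 libraries (rows) around Id2, by distance from the start site in kb (x axis, upstream to the left). Each block is a peak, drawn with a minimum width, and its colour is the score rank in its library, from yellow for the upper end (0%) to dark purple for the lower end (100%). The ILCP rows hold blocks at -2.8, 0.2 and 3.1 kb and, in ILCP 1, at -93.7 kb, while CLP rows hold yellow blocks at -93.7 kb and none at 3.1 kb.

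*Id3*, which restrains E proteins after antigen receptor signals, was open at its start site in all thymic and CLP libraries (chr4:136143179-136145312). Its rank was 47.1% and 16.7% in CD4SP, 46.04% and 14.9% in NKT, and 96.7%, 56.1% and 61.3% in CLP, with no peak in ILCP. Every thymic library ranked it above every CLP library, while the CD4SP and NKT libraries overlapped. An interval 4.4 kb downstream followed, at 25.5% to 53.6% in the thymus, at 68.6% and 42.1% in CLP 2 and CLP 3, and without a peak in the other 3 bone marrow libraries. A pair of intervals, 20.3 kb upstream and 16.8 kb downstream, was open in the 4 thymic libraries alone, at 57.7% to 94.5% and 69.6% to 86.9%. The remaining intervals, 3.1 kb upstream and 20.1 kb downstream, were open in CD4SP 2 alone.

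*Id1*, a target of BMP signalling in many tissues, had 1 interval over its start site (chr2:152734632-152736830) that was open in the 4 thymic and 3 CLP libraries. Its rank was 63.6% and 36.0% in CD4SP, 45.3% and 38.4% in NKT, and 83.4%, 83.0% and 60.7% in CLP, so CLP and CD4SP overlapped. Neither ILCP library had a peak. The other 4 intervals of *Id1* were each open in 1 or 2 libraries, between 80.4% and 98.3%.

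**Figure D3:**
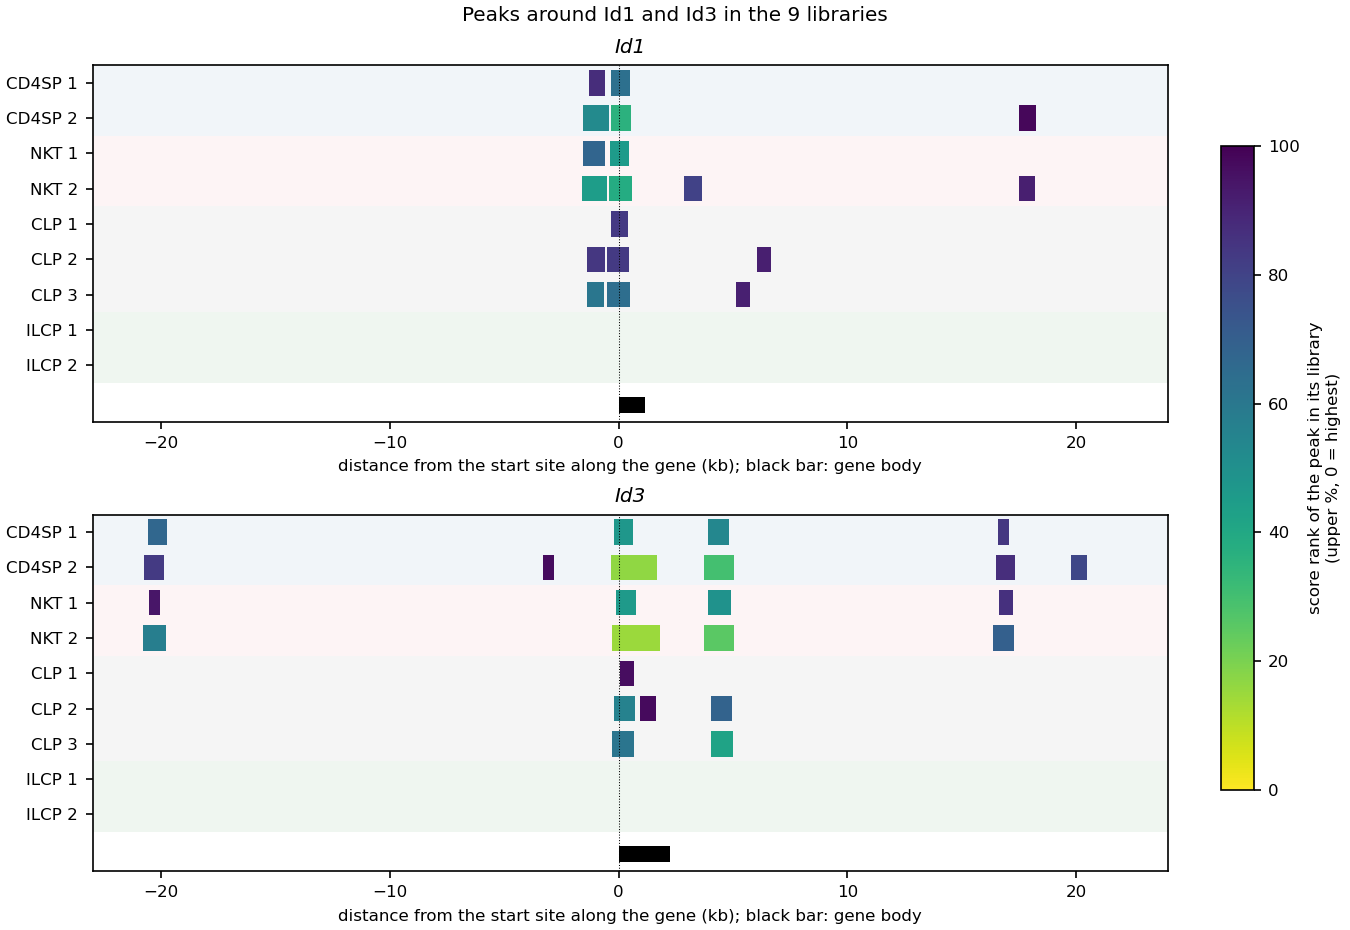
Peaks of the 9 libraries (rows) around Id1 and Id3, by distance from the start site in kb, with the colour giving the score rank in the library (yellow at 0%, dark purple at 100%). The rows of both ILCP libraries are empty for both genes.

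*Tcf3*, which encodes the E12 and E47 forms of E2A, had a start site open in all 9 libraries but with different rank in the tissues. It stood at 7.03% and 3.0% in CD4SP, 9.07% and 3.37% in NKT, 40.4%, 33.3% and 27.3% in CLP, and 71.3% and 40.4% in ILCP. Every thymic library was thus above every bone marrow library. The letters of the promoter before the outermost annotated start are shown because the interval was the one E protein site tested in all libraries (RefSeq, GRCm38.p6, chr10:80433648-80433885, minus strand). They hold 1 E-box, in capitals, which is neither CAGCTG nor CAGGTG.
Tcf3 promoter: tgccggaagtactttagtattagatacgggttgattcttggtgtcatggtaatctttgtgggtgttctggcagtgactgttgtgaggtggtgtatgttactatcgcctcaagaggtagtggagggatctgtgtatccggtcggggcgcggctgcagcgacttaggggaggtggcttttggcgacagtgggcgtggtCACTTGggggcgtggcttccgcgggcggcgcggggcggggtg

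Score ranks were tested with limma on normal scores of the rank, where a difference of 1 is 1 SD over the intervals of a library, with Benjamini-Hochberg adjustment over all intervals. Over the 9464 intervals open in all 9 libraries, 25.2% ranked higher in the thymus and 24.4% lower. This contrast was added after the data were seen. Of the 3 member intervals among them, the *Tcf3* start site was higher in the thymus by 1.68 (SE 0.245, limma adjusted p = 0.000627). The interval 34.2 kb downstream of the *Tcf3* start site, at the start site of the neighbour *Mbd3*, was higher by 1.05 (SE 0.239, limma adjusted p = 0.00563). The *Id2* start site differed by 0.14 (SE 0.15, limma adjusted p = 0.444), so neither direction was called for it.

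Other intervals of *Tcf3* were thymic too. The one 26.8 kb downstream, at the start site of *Uqcr11*, was open in the 4 thymic libraries alone, at 36.9% to 85.0%. Those at 1.5 kb in intron 1 and 12.8 kb upstream were open in CD4SP 2 and NKT 2, the libraries of each thymic type with more peaks.

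*Tcf12* encodes HEB, the main partner of E2A in thymocytes. Its start site was open in CD4SP 2 (61.6%), NKT 2 (80.6%), CLP 2 (78.9%) and CLP 3 (59.1%), and in none of the other 5 libraries. An interval in intron 13, 237.4 kb from the start site (chr9:71873823-71875036), was open in the 4 thymic libraries alone, at 29.9% to 50.8%. An interval in intron 5, 160.3 kb from the start site (chr9:71951027-71952028), was open in the 3 CLP libraries alone, at 49.2% to 78.7%. In intron 3, 14.6 kb from the start site, an interval was open in the 3 CLP libraries (72.9%, 90.4% and 58.7%), in NKT 2 (90.9%) and in ILCP 1 (92.8%), where it was the 1 peak of ILCP at this gene. The last 3 intervals of the gene were each open in 1 library, at 79.6% in NKT 2, 81.7% in CLP 3 and 94.4% in NKT 1.

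*Tcf4*, whose product E2-2 is best known from plasmacytoid dendritic cells and B cells, is the longest of these genes and had the most intervals. At its start site it stood at 19.1% and 15.7% in CD4SP, 16.1% and 22.6% in NKT, 50.5%, 35.2% and 35.2% in CLP, and 48.7% in ILCP 2, with no peak in ILCP 1. The 4 thymic libraries ranked above the 4 bone marrow libraries that had the peak. This holds for the principal start, and the intervals at 1.8, 3.9 and 248.4 kb cover other annotated starts of *Tcf4*. In intron 6, 203.2 kb from the start site, an interval was open in the thymus at 5.76% to 14.7% and in ILCP at 86.0% and 58.8%, and in no CLP library. It was the second of the member intervals specific to ILCP, and ranked far higher in thymocytes than in ILCP.

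In intron 8 of *Tcf4*, 231.4 kb from the start site, CD4SP stood at 26.8% and 25.7% and NKT at 77.6% and 67.0%, with CLP at 58.5%, 16.9% and 20.03% and no peak in ILCP. Both NKT libraries thus ranked below both CD4SP libraries there. The difference of NKT minus CD4SP was -1.49 (SE 0.249), with a limma adjusted p of 0.18 over 24221 intervals. At 193.2 kb in intron 6 it was -0.91 (SE 0.245), with a limma adjusted p of 0.256. In *Tcf4*, 3 further intervals, in introns 3, 3 and 5 at 21, 52.0 and 163.6 kb, were open in both CD4SP libraries and neither NKT library, at 62.1% to 94.5%. The one at 21 kb was also open in the 3 CLP libraries and neither ILCP library, as were those at 231.4 and 318.2 kb. Open in the 4 thymic libraries alone were those at 3.9, 193.2 and 244.2 kb, at 83.5% to 91.7%, 54.5% to 87.9% and 45.1% to 77.2%. At 248.4 kb an interval was open in all libraries but CLP 1, at 14.2% to 35.4% in 7 of them and 87.8% in ILCP 2. It covers an annotated start, and CLP 2 and CLP 3 (15.2% and 14.2%) ranked it above every thymic library (16.6% to 24.8%). The other 8 intervals, among them the one at 1.8 kb, were open in 1 to 6 libraries.

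Over all 24221 intervals, no difference of NKT minus CD4SP passed an adjusted p of 0.05 in limma (0% called, 2735 with an unadjusted p under 0.05), which includes the 23 of these 6 genes. With a missing peak ranked lowest, 1.80% of 47405 intervals were called higher in NKT and 1.08% lower, none of them among the 44 of these genes. On simulated ranks with 200 of the 24221 intervals changed, the test recovered 0% of differences of 2 and 73% of differences of 4. Each interval was given the spread seen in these few libraries as its true spread, so recovery in the real data can differ. The lack of calls therefore does not show that differences of this size are absent.

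**Figure D4:**
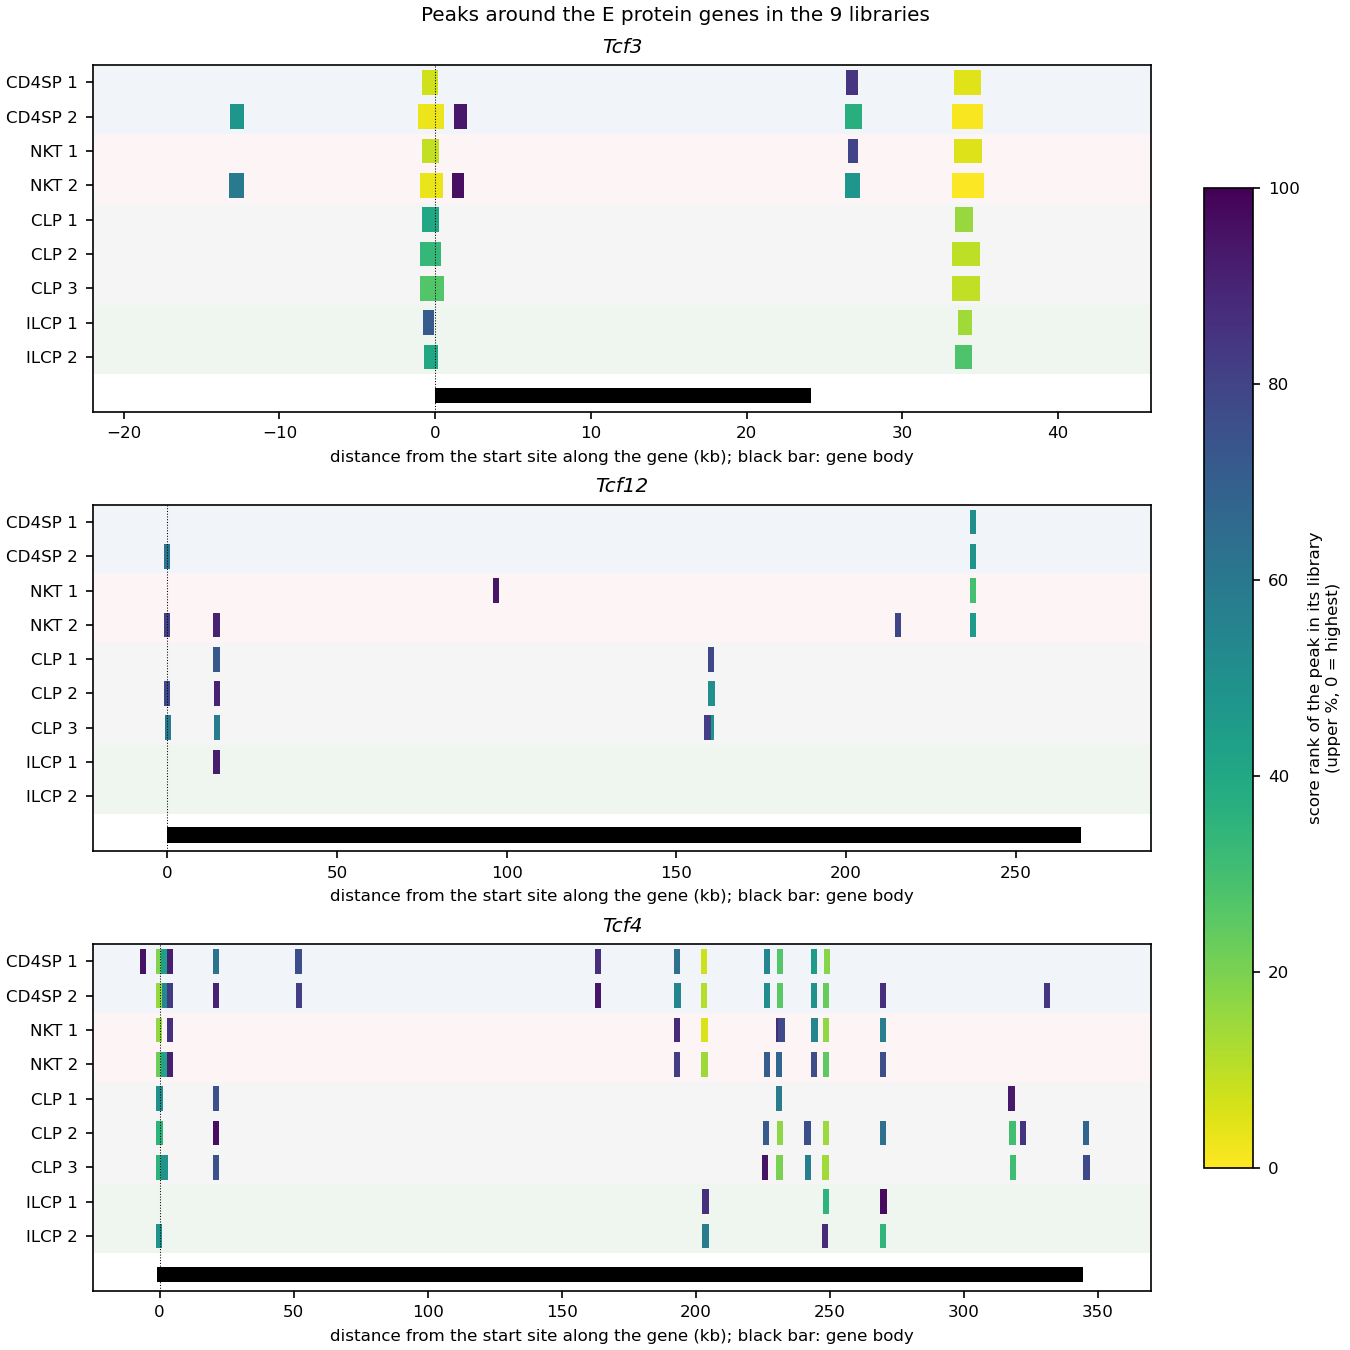
Peaks of the 9 libraries (rows) around Tcf3, Tcf12 and Tcf4, by distance from the start site in kb, with the colour giving the score rank in the library (yellow at 0%, dark purple at 100%). The Tcf3 start site is yellow in the 4 thymic rows and green to blue in the bone marrow rows, and the ILCP 2 row of Tcf12 is empty.

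Counted over the 6 genes, intervals specific to CLP and to the thymus took larger shares than among all intervals. With the upper 50% of peaks in each library this turned for CLP (6.67% against 7.81% of all intervals), and with an equal number of top peaks the thymic share was 6.9% against 5.9%. Of the 35 intervals open in CLP or ILCP, 9 were specific to CLP, which is 25.7% against 8.18% of all intervals. They were 3 at *Id2*, 3 at *Tcf4* and 1 each at *Tcf12*, *Id1* and *Id3*. Without CLP 1, the library with the fewest peaks, 16 of 35 were specific to CLP, 45.7% against 30.5% of all intervals. Specific to ILCP were 2 of the 35, or 5.71% against 8.67%.

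In the thymus, 4 of 44 intervals were specific to CD4SP, 9.09% against 5.21% of all intervals, and none of 44 was specific to NKT, against 6.48%. With an equal number of top peaks the CD4SP share turned, to 4.76% against 5.1%. Open in the 4 thymic libraries and no bone marrow library were 11 of 59, 18.6% against 7.04%, and the reverse was found at none, against 2.04%. These 11 were 4 at *Id2*, 3 at *Tcf4*, 2 at *Id3* and 1 each at *Tcf3* and *Tcf12*. No interval of the 59 was open in every NKT and ILCP library and closed in both controls, against 0.605% of all intervals, and 3 of the 59 were open in all 9 libraries (5.08% against 13.3%). Neighbouring intervals of a gene share their libraries and are not independent, so these shares were not tested.

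**Figure D5:**
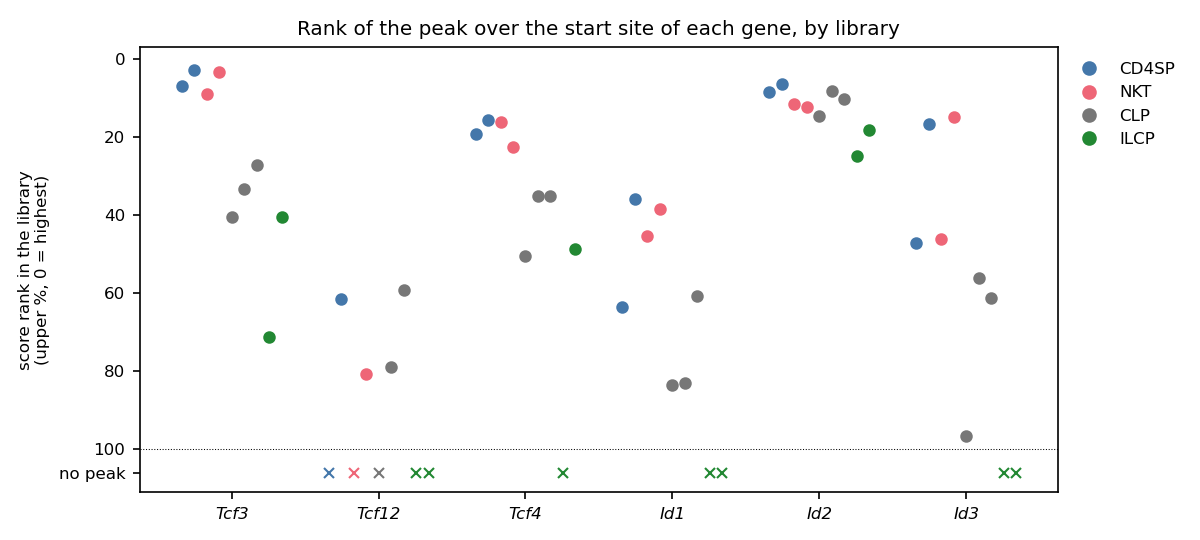
Score rank (y axis, upper percentage of the library's peaks, 0 at the top) of the interval over the start site of each gene (x axis). Each point is 1 library, coloured by cell type, and a cross marks a library without a peak. Id2 is between 6.48% and 25.0% in all 9 libraries, while ILCP has no peak at Tcf12, Id1 and Id3.

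Among the 12171 intervals open in all CLP and ILCP libraries, 4.96% ranked higher in ILCP and 4.70% lower, and none of the 3 member intervals was called. The *Id2* start site differed by -0.32 (SE 0.201, limma adjusted p = 0.343) and the *Tcf3* start site differed by -0.33 (SE 0.347, limma adjusted p = 0.565). When an absent peak was given the lowest rank, 52150 intervals could be compared, of which 12.1% ranked higher in ILCP and 8.47% lower. Absent peaks then share 1 value in a library, which narrows the spread.

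Of the 35 member intervals in that comparison, 2 ranked higher in ILCP and 7 lower. All of them but the *Id2* interval 93.7 kb upstream had peaks in only 1 of the cell types compared, so the given lowest rank fixed their direction and these counts restate the presence of peaks.

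Whether the step from control to PLZF-expressing cell differed between tissues was tested over the 9464 intervals open in all libraries. There 0.264% of intervals had a more positive step in the thymus and 0.338% a more negative one. None of the 3 member intervals was called, with differences of 0.30 for the *Mbd3* interval, 0.21 for the *Tcf3* start site and -0.06 for the *Id2* start site (limma adjusted p = 0.828, 0.883 and 0.951).

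E-boxes were counted in the central 300 bp of the intervals. Of the 59 central stretches, 45 held at least 1 (76.3% against 79.0% of all intervals, and 72.3% of 32817 RefSeq promoters of the same length). The form CAGGTG was in 28.8% against 22.1% of intervals and 20.2% of promoters, and in 8 of the 17 at *Id2*. CAGCTG was in 25.4% against 19.9% and 16.3%. TGTGGT, the core of Runx sites, was in 22.0% against 32.1% and 16.8%, and AGATAA, which resembles the sites of Gata factors, in 8.47% against 14.5% and 11.2%. CTTTGAA was in 11.9% against 8.61% and 5.14%. TTATGTAA was in 1 of the 59 and GCGTGGGCG, the site of Egr proteins, in none, against 0.966% and 0.291% of intervals and 0.935% and 0.612% of promoters. All were searched on both strands, and both 6-letter forms with fixed middle letters are themselves E-boxes.

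Of 27 other genes of the pathway, each with 20 kb flanks, 2 had every NKT library above every CD4SP library and 6 the reverse, patterns found in 8.82% and 6.16% of all genes. *Zbtb16* itself had 13 and 12 peaks in NKT and 3 and 3 in CD4SP. *Nfil3*, which encodes a factor upstream of *Id2* in innate lymphoid cells, had 3 and 3 in NKT and 1 and 1 in CD4SP. It was also the 1 gene of the 27 higher in every ILCP library (4.53% of all genes), with 4 and 4 peaks against 0, 1 and 2 in CLP. In ILCP *Zbtb16* had 7 and 9 peaks, and CLP had 0, 7 and 2, so these touched at 7.

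Higher in CD4SP were *Ets1* (20 and 20 peaks against 12 and 12), *Tox* (16 and 14 against 10 and 11), *Tcf7* (7 and 10 against 4 and 6), *Ldb1* (6 and 6 against 4 and 5) and the neighbours *Rag1* and *Rag2*, whose windows overlap (5 and 4 against 2 and 3 at each). *Ets1* and *Tox* encode factors upstream of Id genes, *Ldb1* a cofactor of E protein complexes, *Tcf7* encodes TCF-1, and *Rag1* and *Rag2* encode the recombinase that E proteins activate. *Notch1*, a receptor of T lineage commitment, was the 1 gene of the 27 higher in every CLP library, as were 9.69% of all genes (3, 5 and 5 against 2 and 2). The 5 genes *Ldb1*, *Tox*, *Cd4*, *Gfi1* and *Tcf7* were higher in every thymic library, as were 12.8% of all genes, and none in every bone marrow library, against 3.54%. The inhibitor *Id4* had no peak in the thymus, 0, 2 and 1 in CLP and 1 and 1 in ILCP, and the E protein partner *Tal2* had none in any library.

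By peaks per 10000 peaks of the library, the genes most like each member over the 9 libraries were found among those on other chromosomes. They were *Rb1*, *Clec2i* and *Hist2h4* for *Id2* (Pearson r 0.952, 0.945 and 0.925), *Zfp385a*, *Map3k5* and *Gimap4* for *Id3* (0.979, 0.979 and 0.977) and *Ddx55*, *Ddi2* and *Eif4g3* for *Id1* (0.975, 0.970 and 0.968). For *Tcf4* they were *Bcat1*, *Sgpp1* and *Itgb8* (0.974, 0.972 and 0.972), for *Tcf12* *Nt5m*, *Atoh8* and *Lypd3* (0.915, 0.909 and 0.908) and for *Tcf3* *Ppp1r13l*, *4921507P07Rik* and *Zdhhc12* (0.961, 0.961 and 0.960). These are the highest of 15973 to 16967 values for each gene, over 9 libraries that share tissue and peak number.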

How the data were processed

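ATAC-seq, in which a transposase cuts accessible DNA, was performed by the authors on sorted CD4SP, NKT, CLP and ILCP cells. Per the study's methods reads were aligned to mm10 with bowtie, and the submitters' processing notes name Bowtie, Picard and HOMER. The authors deposited 1 list of MACS peaks per library, with replicates not pooled, and the deposited score of each peak starts at 120. MACS settings, duplicate removal and any shift of read ends are not given in the sources used here. The study's methods give a range of reads over all libraries and the files none for single libraries, so no counting interval was given. The Runx1 chromatin immunoprecipitation and its input were not analysed here.

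Peaks sharing 1 bp were merged with Python 3.11.15 and pandas 2.3.3. All peaks lay within the GRCm38.p6 chromosomes. Gene models were GENCODE M21, and the start site of a member was the annotated principal start nearest to a RefSeq start, or the outermost where no RefSeq promoter was at hand (*Tcf4*, *Id1*). RefSeq promoters were matched for 4 of 6 members. Exact permutation of the library labels, on the absolute difference of means, was used for peak numbers, adjusted with statsmodels 0.14.6. Ranks were tested with limma 3.58.1 in R 4.3.3, after tests on simulated data. P-values measure the spread between these libraries.

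Described singly were the intervals over start sites, those specific to a cell type or tissue and those past an adjusted p of 0.05 in limma. Other pathway genes were named where compared libraries did not overlap, with the 3 most alike genes per member. The members, lists and tests were chosen with earlier results of these data known. The count over all B lineage markers is not reported here.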

Additional observations from a re-analysis of the deposited data

How the results depend on the processing

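Of 370 values of peak number under other settings, 333 neither turned in sign nor crossed the threshold for the unadjusted p. Differences that fell to 0 or started from 0 are among these 333. In 10 the p fell below the threshold, in 12 it rose above it, and 15 turned in sign. No value of NKT minus CD4SP or ILCP minus CLP could cross the threshold. The exact permutation p cannot be below 0.333 in the former and 0.1 in the latter. The count of 333 therefore does not show that these results are stable. *Id2* in NKT minus CD4SP turned to 1 with an equal number of top peaks and to 1.5 with the upper 50% of peaks, where *Id3* turned to 0.5. *Id1* there was -0.5 without NKT 2. *Id2* in ILCP minus CLP was 1.33 with flanks of 5 or 20 kb, and its sum over tissues 0.333 with either. That sum for *Id1* was 0.667 with an equal number of top peaks and 1 with the upper 50%, where *Id3* and *Tcf12* were at 0.167. *Tcf12* in thymus minus bone marrow was -0.0185 per 10000 peaks, -0.25 without ILCP 2, and -0.333 (without NKT 2) to 0.75 over all left-out libraries. The *Tcf3* start site in ILCP minus CLP differed by 0.19 without ILCP 1 and by -0.68 without ILCP 2.

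Intervals specific to CLP numbered 5 (14.7% against 8.8% of all intervals), to ILCP 1 (2.94% against 8.4%), when peaks had to cover 50% of the interval. Open in any library of the type, they numbered 24 for CLP (68.6% against 44.3% of all intervals), 24 for thymus (40.7% against 27.0%), 9 for CD4SP (20.5% against 14.0%) and 4 for NKT (9.09% against 16.2%). With an equal number of top peaks they were 5 for CLP (25.0% against 11.3%), 2 for thymus (6.9% against 5.9%), 1 for CD4SP (4.76% against 5.1%) and 1 for ILCP (5.0% against 14.1%), and with the upper 50% of peaks 1 for CLP (6.67% against 7.81% of all intervals), 3 for thymus (12.0% against 7.47%), 2 of 20 for CD4SP (against 4.67%) and 1 for ILCP (6.67% against 9.25%). With 5 kb flanks 5 were thymic (12.8% against 7.04%). Leaving out a library gave 9 to 16 for CLP (16 without CLP 1), 4 to 7 for CD4SP (7 without CD4SP 1 or NKT 2), 0 to 3 for NKT (3 without NKT 1), 2 to 3 for ILCP and 11 for thymus in every case. Without intervals near other genes' start sites, 8 were specific to CLP (25.0% against 8.18%) and 10 to the thymus (18.5% against 7.04%). With a missing peak ranked lowest, 9 member intervals were called in ILCP minus CLP. The cause was not tested.

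Over all intervals, leaving out a CD4SP or an ILCP library changed the number of limma calls in its comparison. Such a fit has 1 library in that group, so its spread comes from the other group alone. Its calls therefore cannot show whether the results are stable. With the rank in the library, limma gave 0 calls in ILCP minus CLP. The *Tcf3* start site was higher in the thymus under every setting run (limma adjusted p 0.000424 to 0.00435). Replicate numbers were not shown to pair the samples, with 2 pairs in each tissue: deviations of replicate 1 minus 2 correlated at 0.481 in the thymus and -0.0273 in the bone marrow. With a replicate block, limma called 0 intervals in NKT minus CD4SP (5064 with p under 0.05) and 354 higher and 419 lower in ILCP minus CLP, none of them a member's. The lack of read numbers for single libraries limits what an absent peak can show.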
